A study of Arabidopsis thaliana with 6 samples.

Results

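The genes described here encode the DNA replication and cell cycle machinery of Arabidopsis thaliana. They were 54 of the 27655 genes of a deposited RNA-seq table, taken by matching each identifier, up to its first dot, to a list of loci with known roles in the cycle. All 54 were in the table: 19 S phase genes, 4 genes of the E2F and RBR group, 15 mitosis genes, 6 genes of the G1 cyclin and CDKA group, 6 CDK inhibitor genes and 4 DNA damage genes. RNA came from whole seedlings at an age of 10 days, in a day of 16 h light and 8 h dark at 22 °C. Wild type plants (Col) gave 3 libraries, and plants of a line labelled h3.3ko;HTR5 gave 3. By its name the line combines a knockout of the histone variant H3.3 with HTR5, an H3.3 gene. Its construction, and whether it is a single line, are not given in the sources used. The groups are compared to see which of these genes differ between them, and whether S phase and mitosis genes differ alike.

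Values are TPM, reads scaled for gene length and library total. Of the H3.3 genes, HTR8 was at 289 to 324 TPM in wild type against 3.19 to 5.20 TPM in h3.3ko;HTR5, HTR4 was at 309 to 331 and at 148 to 155 TPM, and HTR5 was at 403 to 423 and at 290 to 298 TPM. The libraries held 13792031 to 14498093 reads recovered from the TPM. Nothing in the labels ties the replicates to separate cultures, so p-values reflect the spread between these libraries alone, and that spread may be technical.

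In eukaryotes, the origin recognition complex, CDC6 and CDT1 load the MCM helicase onto DNA in G1, and S phase begins when CDC45 and other factors turn the helicase on. In plants, E2F transcription factors drive many S phase genes and are held back by RBR1, the retinoblastoma homologue, until D-type cyclins bound to CDKA phosphorylate it. B-type cyclins and the plant-specific B-type CDKs drive mitosis, and many of their promoters carry the mitosis-specific activator (MSA) element, which MYB3R factors bind. H3.3 is loaded onto chromatin outside replication.

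The promoters of the S phase and mitosis genes are shown first because these classes carry different motifs there. Each promoter is 300 bases, from 250 bases before to 50 bases after the annotated gene start, read on the gene's strand from the RefSeq TAIR10.1 genome. An E2F motif was taken as any of the 4 words TTTCCCGC, TTTCGCGC, TTTGCCGC and TTTGGCGC, and the core of the MSA element as CAACGG, both searched on both strands. The E2F motif was found in 9 of 19 S phase promoters (47.4%) and in 0 of 15 mitosis promoters. It was in 483 of 27443 promoters of all annotated protein-coding genes of the nuclear chromosomes (1.76%). Within the S phase genes it was found in 5 of the 6 promoters of MCM2 to MCM7, and MCM7 had no match. The MSA core was found in 9 of 15 mitosis promoters (60%), in 3 of 19 S phase promoters (15.8%) and in 1799 of all promoters (6.56%). ORC2 held both, at separate places. A match is a description of letters and not a test of binding.

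The windows below hold the E2F motif, in capitals with 20 bases on either side, in 4 of the MCM genes, the origin gene ORC1A and the ribonucleotide reductase gene RNR1. They lie, 5′ to 3′ on the gene's strand, in the order MCM2 to RNR1 as MCM2 at chr1:16970180-16970227 on the plus strand, MCM3 at chr5:18773849-18773896 on the minus strand, MCM5 at chr2:3527492-3527539 on the minus strand, MCM6 at chr5:18010686-18010733 on the minus strand, ORC1A at chr4:8422140-8422187 on the plus strand and RNR1 at chr2:9293251-9293298 on the plus strand. A motif in the form GCGGGAAA or GCGCCAAA is one of the 4 words on the other strand.
MCM2: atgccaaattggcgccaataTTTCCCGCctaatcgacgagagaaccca
MCM3: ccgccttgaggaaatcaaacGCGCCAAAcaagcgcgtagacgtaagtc
MCM5: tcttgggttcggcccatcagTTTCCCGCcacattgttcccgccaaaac
MCM6: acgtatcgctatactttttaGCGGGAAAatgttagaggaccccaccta
ORC1A: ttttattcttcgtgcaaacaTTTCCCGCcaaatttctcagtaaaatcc
RNR1: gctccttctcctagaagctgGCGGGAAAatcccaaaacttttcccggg

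Windows around the MSA core, in capitals with 20 bases on either side, are given for 3 B-type cyclins, the partners of mitotic CDKs. Their places are CYCB1;1 at chr4:17624344-17624389 on the minus strand, CYCB1;3 at chr3:3627288-3627333 on the minus strand and CYCB2;1 at chr2:7663898-7663943 on the plus strand. CCGTTG is CAACGG on the other strand.
CYCB1;1: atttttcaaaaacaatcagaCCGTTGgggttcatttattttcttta
CYCB1;3: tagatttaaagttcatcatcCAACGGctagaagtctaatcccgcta
CYCB2;1: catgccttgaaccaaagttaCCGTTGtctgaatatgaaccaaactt

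Whole promoters are given for MCM4 and KN, with every motif match in capitals. MCM4 encodes a helicase subunit, and its promoter at chr2:7130680-7130979 on the minus strand holds 1 E2F motif and 0 MSA cores. KN (KNOLLE) encodes the syntaxin that fuses vesicles at the dividing wall, and its promoter at chr1:2710951-2711250 on the minus strand holds 2 MSA cores and 0 E2F motifs.
MCM4: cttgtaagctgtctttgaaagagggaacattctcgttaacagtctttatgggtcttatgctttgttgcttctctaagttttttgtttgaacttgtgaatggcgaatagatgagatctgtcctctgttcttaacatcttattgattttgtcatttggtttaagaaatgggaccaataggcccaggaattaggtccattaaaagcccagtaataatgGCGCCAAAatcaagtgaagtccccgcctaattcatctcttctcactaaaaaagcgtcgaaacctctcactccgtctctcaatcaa
KN: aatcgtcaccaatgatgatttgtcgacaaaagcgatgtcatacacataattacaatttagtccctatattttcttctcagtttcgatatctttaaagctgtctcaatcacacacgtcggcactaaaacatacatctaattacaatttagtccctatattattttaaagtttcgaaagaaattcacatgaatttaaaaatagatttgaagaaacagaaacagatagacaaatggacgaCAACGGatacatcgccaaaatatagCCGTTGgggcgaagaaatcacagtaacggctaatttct

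**Figure D1:**
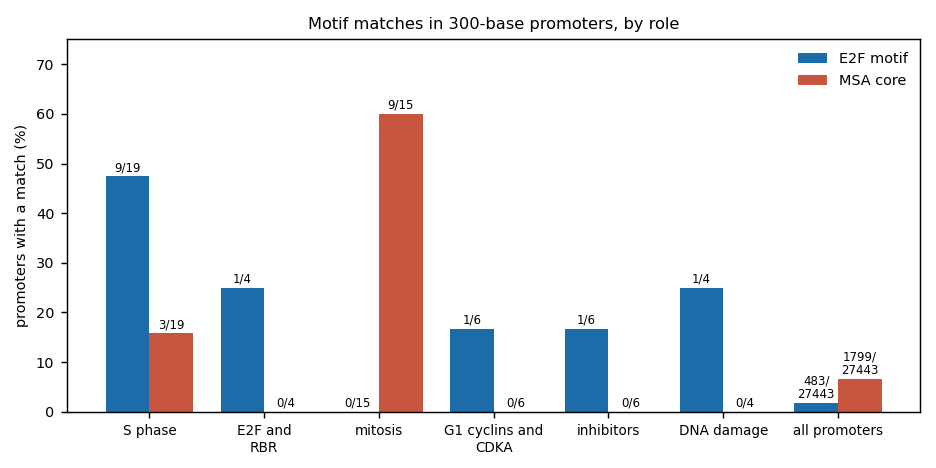
Share of promoters (%, vertical axis) with an E2F motif (blue) or an MSA core (red) for each role class and for all promoters, with the number of promoters above each bar. E2F motifs are in 9 of 19 S phase and 0 of 15 mitosis promoters, and MSA cores in 3 of 19 and 9 of 15.

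Of the 54 genes, 53 had a mean TPM of at least 1 and were tested, and the inhibitor gene SMR5 was listed at 0 in every library. By limma on log2(TPM + 1), with p-values adjusted by the Benjamini-Hochberg method over all 19013 genes tested, 8 were lower in h3.3ko;HTR5 at an adjusted p under 0.05 and 0 were higher, and 45 did not pass. Over all genes tested 8.32% were lower, 3.7% were higher and 12% changed either way. Of the 8 lower genes 6 belong to S phase (MCM3, MCM4, MCM7, CDT1A, RNR1 and TSO2), and the others are the G1 cyclin gene CYCD3;3 and the inhibitor gene KRP1. At an unadjusted p under 0.05 there were 23 genes, of which 14 belong to S phase and 2 to mitosis, and of the 23 the higher ones were CYCB1;2 and CYCD1;1. Over all genes tested 26.8% had such a p. Voom called 0 higher as well. The median log2 fold change was -0.19 over the 53 genes and -0.03 over all genes tested. The count of 8 became 13 with voom on the recovered reads, which called 10.1% of all genes lower, and lay between 3 (without wild type replicate 3) and 7 when single libraries were left out.

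Every one of the 19 S phase genes had a log2 fold change below 0, from -0.56 to -0.08 with a median of -0.30, where 57.9% of all genes tested were below 0. In 16 of the 19 the 3 h3.3ko;HTR5 libraries lay below all 3 wild type libraries, against 20.4% of all genes tested. ORC1B, POLD1 and ETG1 overlapped. Wild type replicate 3 was the highest library for 14 of the 19, and for 19.4% of all genes tested. Without it 18 S phase genes were tested, all 18 were below 0, the median was -0.25 and 2 passed the test. In these whole seedlings, fewer dividing cells and less of each RNA per cell cannot be told apart.

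**Figure D2:**
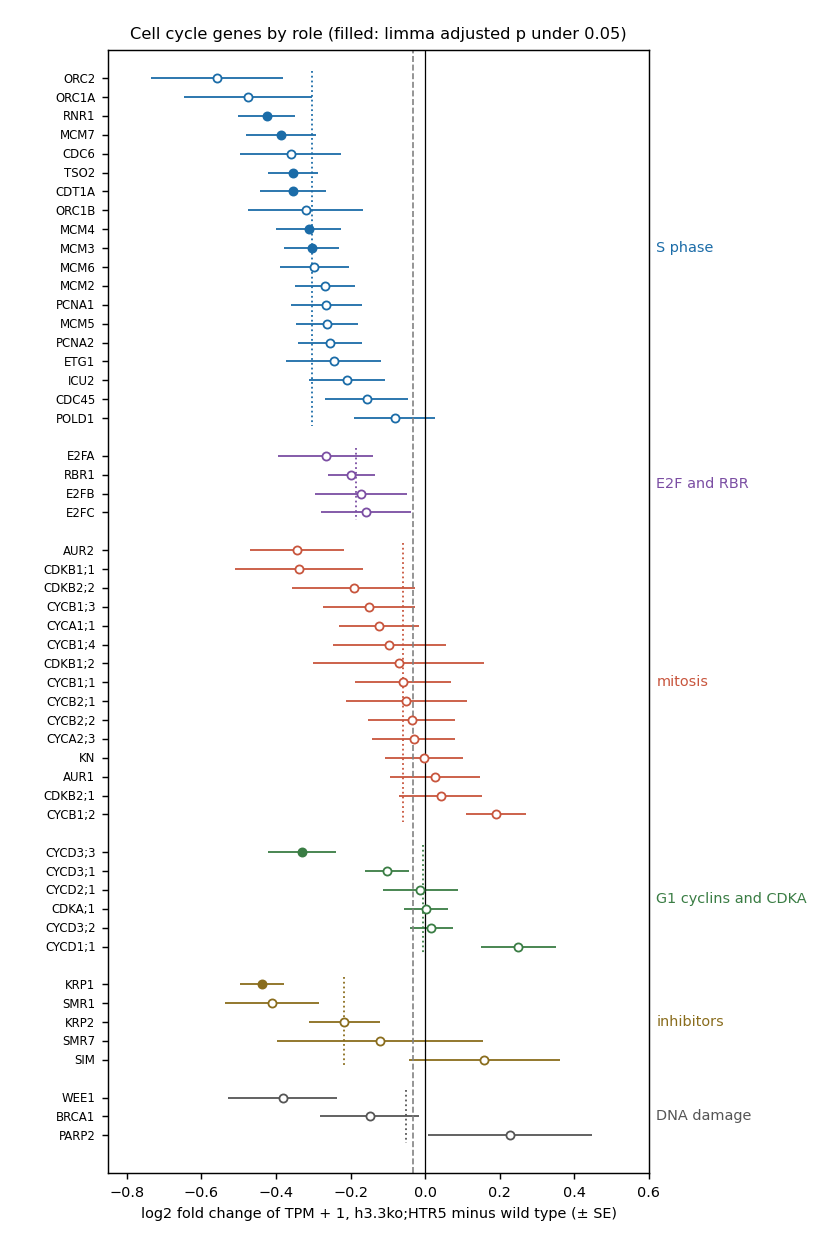
Log2 fold change of TPM + 1 (horizontal axis, h3.3ko;HTR5 minus wild type, bars are the standard error from limma) for 52 of the 53 tested genes, by role. Filled points passed the test, dotted lines are class medians and the dashed line is the median of all genes tested. All 19 S phase genes lie left of 0, and the 15 mitosis genes lie on both sides of it, from -0.34 to 0.19.

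The MCM2 to MCM7 proteins form the ring that unwinds DNA ahead of the replication fork. MCM3 (AT5G46280) was at 17.3, 18.8 and 18.0 TPM in wild type libraries 1 to 3 against 13.9, 14.9 and 14.4 TPM in h3.3ko;HTR5 libraries 1 to 3. MCM4 (AT2G16440) was at 15.3, 13.9 and 16.7 TPM in wild type against 11.9, 12.4 and 11.9 TPM in h3.3ko;HTR5. MCM7 (AT4G02060) was at 17.3, 18.5 and 22.0 TPM in wild type against 13.9, 14.7 and 14.8 TPM in h3.3ko;HTR5. For all of these the groups did not overlap, and in wild type MCM7 was highest in replicate 3. The log2 fold change was -0.30 ± 0.07 for MCM3 (SE, n = 3 per group, limma adjusted p = 0.0242), -0.31 ± 0.09 for MCM4 (adjusted p = 0.0439) and -0.39 ± 0.09 for MCM7 (adjusted p = 0.0238).

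The other helicase genes missed the threshold with values of like size. MCM2 (AT1G44900) was at 14.4, 15.5 and 16.5 TPM in wild type against 13.1, 12.8 and 12.1 TPM in h3.3ko;HTR5. MCM5 (AT2G07690) was at 16.9, 15.9 and 18.8 TPM against 14.0, 13.7 and 14.6 TPM, and MCM6 (AT5G44635) at 10.1, 10.0 and 11.2 TPM against 8.81, 8.16 and 7.89 TPM. The groups did not overlap for any of the 6 MCM genes, where 20.4% of all genes tested were lower without overlap. By limma the adjusted p was 0.0602 for MCM2, 0.0690 for MCM5 and 0.0640 for MCM6, with log2 fold changes of -0.27, -0.26 and -0.30. MCM2, MCM5 and MCM6 passed with voom on the recovered reads. TPM were recomputed with exon length, the scale on which levels of different genes can be set beside each other. There the order of the means was the same in both groups. It ran from MCM6 (12.1 TPM in wild type, 9.67 TPM in h3.3ko;HTR5) through MCM2, MCM4, MCM3 and MCM5 to MCM7 (27.4 and 20.6 TPM). MCM4 and MCM3 lay within their SD, at 18.05 ± 1.67 and 18.34 ± 0.78 TPM in wild type. In h3.3ko;HTR5 they were at 14.33 ± 0.33 and 14.7 ± 0.47 TPM.

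MCM3 missed the threshold by limma when wild type replicate 2 (adjusted p = 0.0809) or 3 (0.0695) was left out, and when replicate 1 (0.0789) or 3 (0.0782) of h3.3ko;HTR5 was. MCM4 missed it when wild type replicate 1 or 3, or any single library of h3.3ko;HTR5, was left out (limma adjusted p of 0.0776 to 0.15), and under quantile normalization (0.061), median-of-ratios scaling (0.0593) and no filter on low values (0.0663). MCM7 missed it when wild type replicate 2 or 3, or any single library of h3.3ko;HTR5, was left out (limma adjusted p of 0.0558 to 0.0769). MCM7 lies at chr4:900636-905591 on the plus strand and overlaps annotated AT4G02055 on the same strand and AT4G02050 on the other, and as no source used here gives the strand setting, their reads cannot be told apart from those of MCM7.

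**Figure D3:**
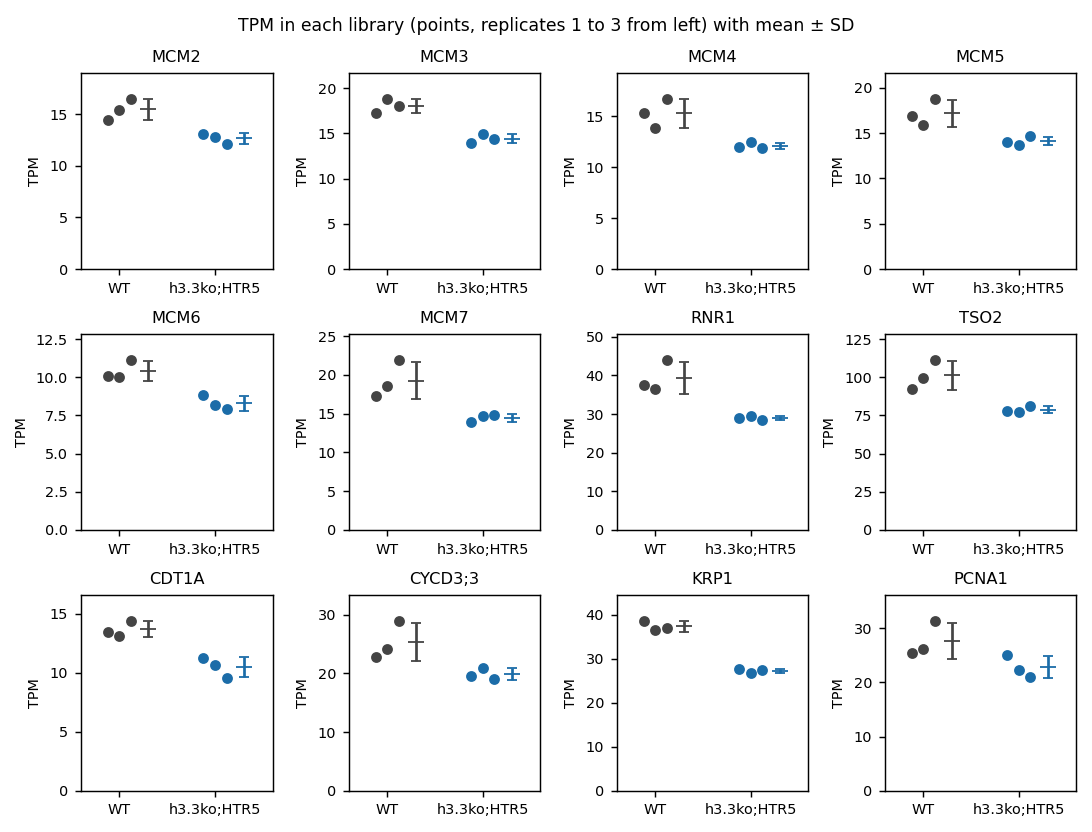
TPM (vertical axis, from 0) in each library for the 6 MCM genes, RNR1, TSO2, CDT1A, CYCD3;3, KRP1 and PCNA1. Points are libraries, replicates 1 to 3 from left, and bars are the mean ± SD. The h3.3ko;HTR5 points lie below the wild type points for all of these genes, with KRP1 at 36.5 to 38.7 TPM against 26.9 to 27.7 TPM and PCNA1 the closest at 25.4 against 25.1 TPM.

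Ribonucleotide reductase makes the deoxynucleotides for DNA synthesis. It has a large subunit, encoded by RNR1, and a small subunit, for which TSO2 is not the only gene. RNR1 (AT2G21790) was at 37.5, 36.5 and 44.1 TPM in wild type against 29.0, 29.6 and 28.4 TPM in h3.3ko;HTR5. TSO2 (AT3G27060) was at 92.6, 99.8 and 111.6 TPM in wild type against 77.7, 77.1 and 81.4 TPM in h3.3ko;HTR5. Both were lower in every library of that line, both were highest in wild type replicate 3, and the h3.3ko;HTR5 libraries lay close together. RNR1 fell by 26.4% (39.4 ± 4.13 to 29.0 ± 0.588 TPM, SD, n = 3 each), a log2 fold change of -0.42 ± 0.08 with a limma adjusted p of 0.00612. TSO2 fell by 22.3% (101.3 ± 9.59 to 78.8 ± 2.36 TPM, SD, n = 3 each), a log2 fold change of -0.36 ± 0.07 with a limma adjusted p of 0.00772. Both passed under all 15 alternatives run, the largest adjusted p being 0.0293 for RNR1 and 0.0309 for TSO2. On the exon-length scale TSO2 stood at 81.1 TPM in wild type and 63.3 TPM in h3.3ko;HTR5, above RNR1 at 45.9 and 33.9 TPM. RNR1 lies at chr2:9293261-9297861 on the plus strand, and TSO2, at chr3:9979841-9981620 on the minus strand, overlaps AT3G27050 on its own strand.

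Of the 5 origin licensing genes (CDT1A, CDC6, ORC1A, ORC1B and ORC2) 1 passed, and most were expressed at a few TPM. CDT1A (AT2G31270), which brings the helicase to origins, was at 13.4, 13.1 and 14.4 TPM in wild type against 11.3, 10.6 and 9.55 TPM in h3.3ko;HTR5. The groups did not overlap, and its log2 fold change was -0.35 ± 0.09 (SE, n = 3 per group, limma adjusted p = 0.0293). CDT1A missed the threshold when wild type replicate 1 (limma adjusted p = 0.0535), 2 (0.0582) or 3 (0.101) was left out, and when replicate 2 (0.0638) or 3 (0.115) of h3.3ko;HTR5 was. ORC1A and ORC2, subunits of the origin recognition complex, had the most negative log2 fold changes of the 19, -0.48 ± 0.17 and -0.56 ± 0.18, with adjusted p-values of 0.107 and 0.0696 by limma. ORC1A (AT4G14700) was at 1.49, 1.22 and 1.54 TPM in wild type against 0.659, 0.761 and 0.796 TPM in h3.3ko;HTR5, which came to 25, 20 and 25 reads against 11, 13 and 13. ORC2 (AT2G37560) was at 2.32, 3.51 and 2.64 TPM against 1.98, 1.25 and 1.55 TPM. Neither overlapped between groups. ORC1A passed when no filter on low values was used (adjusted p = 0.0335), and ORC2 passed with voom and with exon lengths.

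CDC6 (AT2G29680), the loader that works with CDT1, was at 2.90, 2.93 and 2.87 TPM in wild type against 2.04, 2.19 and 1.88 TPM in h3.3ko;HTR5. It had a narrow spread and no overlap, with a log2 fold change of -0.36 ± 0.13 that did not pass (limma adjusted p = 0.116). ORC1B (AT4G12620), a second gene for the large origin subunit, was at 5.83, 9.26 and 8.72 TPM against 6.72, 5.71 and 5.75 TPM, so that wild type replicate 1 lay within the range of the h3.3ko;HTR5 libraries (-0.32, limma adjusted p = 0.217). When that library was left out ORC1B passed as lower (-0.50, limma adjusted p = 0.0259).

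The genes that act around the fork itself had log2 fold changes of -0.27 to -0.08, and 0 of these 6 passed by limma or voom, PCNA1 and PCNA2 having an unadjusted p under 0.05. PCNA1 and PCNA2 encode the sliding clamp that holds DNA polymerase on its template. PCNA1 (AT1G07370) was at 25.4, 26.1 and 31.4 TPM in wild type against 25.1, 22.3 and 21.0 TPM in h3.3ko;HTR5, and PCNA2 (AT2G29570) at 25.5, 25.6 and 29.7 TPM against 22.2, 24.3 and 20.8 TPM. The groups did not overlap for either, and neither passed (log2 fold changes of -0.27 ± 0.10 and -0.26 ± 0.08, limma adjusted p of 0.103 and 0.0815). ICU2 (AT5G67100), the catalytic subunit of polymerase alpha, and CDC45 (AT3G25100), which activates the helicase, were at 6.62 to 7.80 TPM and 6.28 to 7.09 TPM in wild type against 5.84 to 6.19 TPM and 5.09 to 6.22 TPM in h3.3ko;HTR5. POLD1 (AT5G63960), the catalytic subunit of polymerase delta, had the value nearest 0 (-0.08 ± 0.11), and ETG1 (AT2G40550), an MCM-binding protein, had -0.25 ± 0.13, and both overlapped between groups.

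**Figure D4:**
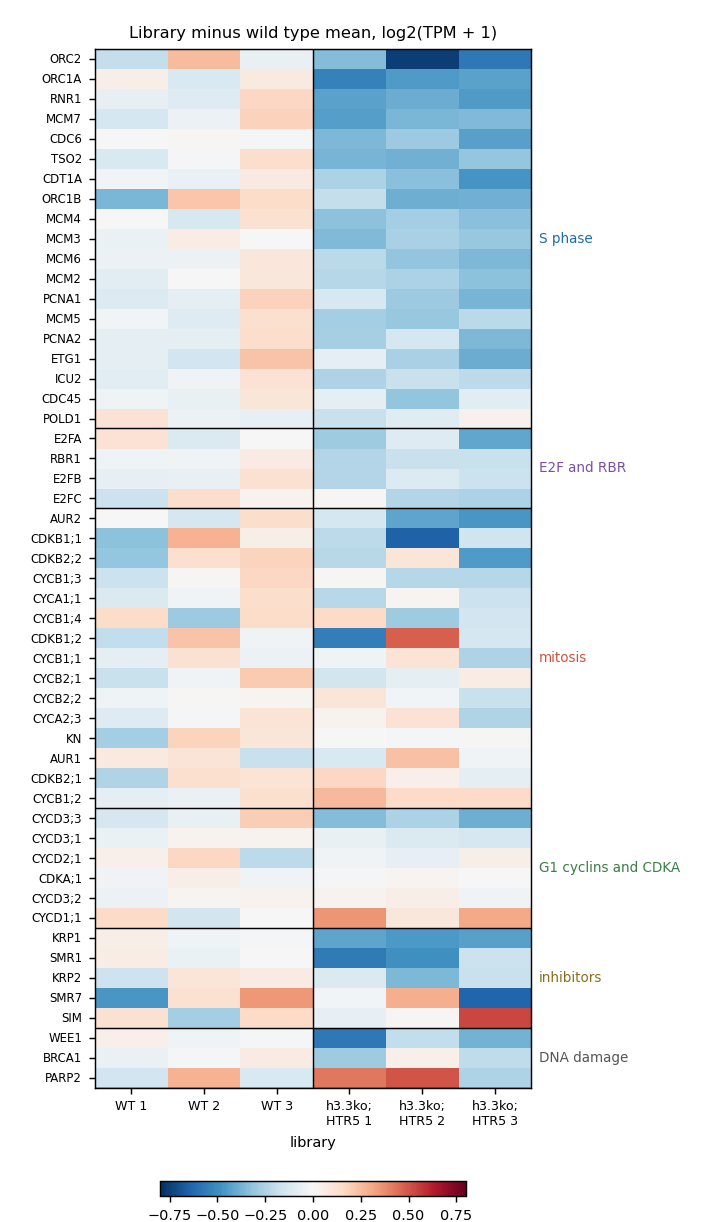
Difference of each library from the wild type mean on the log2(TPM + 1) scale (colour, blue lower and red higher) for 52 of the 53 tested genes (vertical) in the 6 libraries (horizontal), grouped by role. The S phase block is blue in nearly all h3.3ko;HTR5 columns, with wild type replicate 3 the highest library for 14 of 19 genes, and the mitosis block is mixed.

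E2FA, E2FB and E2FC are the classical E2F factors, of which E2FA and E2FB are known as activators of S phase genes, and RBR1 restrains them. By limma 0 of the 4 genes passed, with voom RBR1 did, RBR1 alone had an unadjusted p under 0.05, all had values below 0 and their median was -0.19. RBR1 (AT3G12280) was at 27.1, 27.3 and 29.2 TPM in wild type against 23.5, 24.5 and 24.5 TPM in h3.3ko;HTR5. The groups did not overlap, and the log2 fold change of -0.20 ± 0.06 missed the threshold by limma (adjusted p = 0.0722) and passed with voom (adjusted p = 0.0201). E2FA (AT2G36010) was at 6.07, 5.01 and 5.53 TPM against 4.36, 5.08 and 3.89 TPM, and E2FC (AT1G47870) at 6.26, 7.99 and 7.34 TPM against 7.23, 5.94 and 5.85 TPM, both with overlap. E2FB (AT5G22220) was at 3.74 to 4.39 TPM against 3.203 to 3.59 TPM without overlap (adjusted p = 0.418). RBR1 is the gene of this group whose promoter holds an E2F motif.

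The 15 mitosis genes had a median log2 fold change of -0.06, near that of all genes, and ranged from -0.34 to 0.19. Of the 15, 12 were below 0, where 57.9% of all genes tested were. That count was 8 under quantile normalization, 10 under median-of-ratios scaling and 9 to 13 with single libraries left out. By limma 0 passed, with voom 0 as well, and 2 had an unadjusted p under 0.05, CYCB1;2 and AUR2 (AT2G25880), which went in opposite directions. KN (AT1G08560) was at 25.8, 35.6 and 33.6 TPM in wild type against 31.3, 31.0 and 31.6 TPM in h3.3ko;HTR5. All 3 values of that line lay inside the wild type range, and the log2 fold change was 0.00 ± 0.10 (adjusted p = 0.991). CDKB2;1 (AT1G76540), a B-type CDK of G2 and mitosis, was at 14.8, 19.5 and 19.2 TPM against 19.96, 18.2 and 16.7 TPM, with a log2 fold change of 0.04 ± 0.11. The sign of both of these values changed with single libraries left out, and that of KN also with the scaling.

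Among the cyclin genes of mitosis, CYCB1;1 (AT4G37490) was at 4.79, 5.62 and 4.88 TPM in wild type against 4.93, 5.57 and 4.12 TPM in h3.3ko;HTR5. CYCB1;2 (AT5G06150) was at 16.3, 16.6 and 18.98 TPM in wild type against 20.9, 19.3 and 19.3 TPM in h3.3ko;HTR5. CYCB1;2 was higher in every h3.3ko;HTR5 library, the only one of the 53 genes with that pattern, which 10.8% of all genes tested showed, and it did not pass (0.19 ± 0.08, limma adjusted p = 0.162). Another place in the genome shares 11.3% of its exon windows of 50 bases, so some of its reads may be uncertain. AUR2, one of the Aurora kinases that act on chromosomes and the division plane, was at 6.86, 6.18 and 7.67 TPM against 6.14, 4.88 and 4.70 TPM without overlap and did not pass (-0.34 ± 0.13, limma adjusted p = 0.111). CDKB1;1 (AT3G54180), the B-type CDK best known at the G2 to M step, had -0.34 ± 0.17 with overlapping groups. The other 9 mitosis genes ranged from -0.19 to 0.03, and all of them overlapped between groups.

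The geometric mean TPM of the 19 S phase genes was 10.9, 11.3 and 12.4 in wild type and 9.13, 8.82 and 8.76 in h3.3ko;HTR5. For the 15 mitosis genes it was 7.64, 8.72 and 9.02 in wild type and 7.99, 8.23 and 7.47 in h3.3ko;HTR5. The S phase means did not overlap between groups, with a difference of -23.0% (11.6 ± 0.768 against 8.90 ± 0.197, SD, n = 3 each), and the mitosis means did, with a difference of -6.69%. The ratio of S phase to mitosis, in which library scaling cancels, was 1.431, 1.298 and 1.376 in wild type and 1.142, 1.071 and 1.173 in h3.3ko;HTR5. Every wild type library stood above every h3.3ko;HTR5 library in this ratio (1.37 ± 0.067 against 1.13 ± 0.052, SD, n = 3 each). Wild type replicate 1 had the lowest mitosis mean of its group and the highest ratio. The difference between the class medians of log2 fold change was -0.25, and from -0.29 to -0.18 with single libraries left out, -0.18 being the value without wild type replicate 1. These are descriptions with no test, since the genes were chosen with results of these libraries known.

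**Figure D5:**
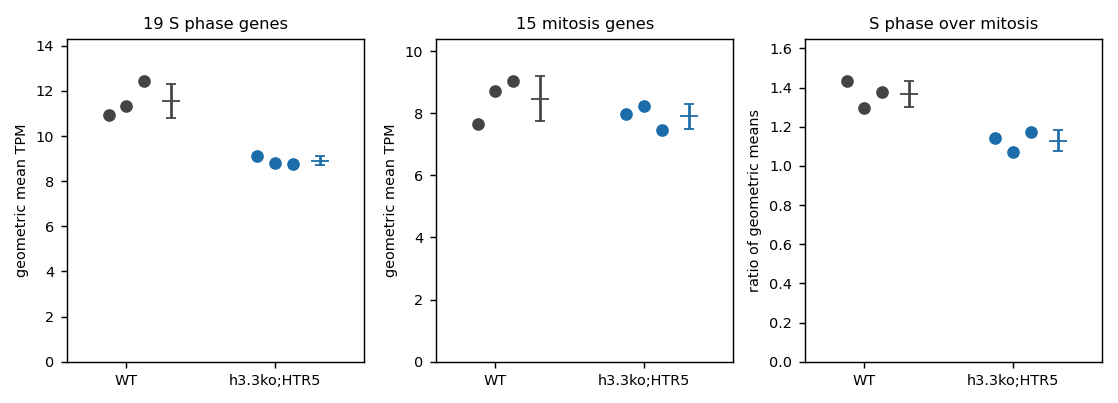
Geometric mean TPM of the 19 S phase genes and of the 15 mitosis genes, and the ratio of both, in each library (points, replicates 1 to 3 from left) with the mean ± SD of each group, and axes start at 0. The S phase means and the ratio separate the groups (1.298 to 1.431 in wild type, 1.071 to 1.173 in h3.3ko;HTR5), and the mitosis means overlap.

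In the G1 group, CYCD3;3 was the gene that passed. D-type cyclins start the cycle by activating CDKA against RBR1, and the CYCD3 genes are known for keeping cells dividing in young leaves. CYCD3;3 (AT3G50070) was at 22.8, 24.1 and 29.0 TPM in wild type against 19.6, 20.9 and 19 TPM in h3.3ko;HTR5, with no overlap, and fell by 21.6% (log2 fold change -0.33 ± 0.09, limma adjusted p = 0.0443). It missed the threshold when wild type replicate 2 or 3, or any single library of h3.3ko;HTR5, was left out (limma adjusted p of 0.0637 to 0.145), and under quantile normalization (0.0737), median-of-ratios scaling (0.07) and no filter on low values (0.0686). CYCD3;1 (AT4G34160) was at 34.9, 37.1 and 37.0 TPM against 34.9, 33.4 and 33.02 TPM (-0.10 ± 0.06, adjusted p = 0.303), and CYCD3;2 (AT5G67260) at 32.6, 34.3 and 34.4 TPM against 34.4, 35.0 and 33.1 TPM (0.02 ± 0.06, adjusted p = 0.893). Whether CYCD3;3 differed from these in its response was not tested. CDKA;1 (AT3G48750), the central cell cycle kinase, was at 29.1, 30.8 and 29.1 TPM in wild type against 29.3, 30.1 and 29.5 TPM in h3.3ko;HTR5, within a narrow range in both groups (0.00 ± 0.06, limma adjusted p = 0.987). CYCD1;1 (AT1G70210) was at 16.3, 13.03 and 14.5 TPM against 18.9, 15.6 and 18.2 TPM, with overlap and the largest positive value of all 53 genes (0.25 ± 0.10, limma adjusted p = 0.144). The 6 genes of the group had a median of -0.01, and its sign depended on the scaling.

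The inhibitors bind and block cyclin-CDK complexes, and KRP1 gave the smallest adjusted p of all the cell cycle genes examined. KRP1 (AT2G23430) was at 38.7, 36.5 and 36.9 TPM in wild type against 27.7, 26.9 and 27.4 TPM in h3.3ko;HTR5. The groups lay far apart relative to their spread, and KRP1 fell by 26.9% (37.4 ± 1.17 to 27.3 ± 0.429 TPM, SD, n = 3 each; log2 fold change -0.44 ± 0.06, limma adjusted p = 0.00134). It passed under all 15 alternatives, with a largest adjusted p of 0.00804. KRP1 lies at chr2:9976590-9978090 on the minus strand. As an inhibitor it acts against the CDKs that the D-type cyclins activate.

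SMR1 (AT3G10525), of the SIAMESE-related family, was at 6.93, 6.33 and 6.58 TPM in wild type against 4.13, 4.40 and 5.75 TPM in h3.3ko;HTR5. The groups did not overlap, and it did not pass (-0.41 ± 0.13, limma adjusted p = 0.0647), except without h3.3ko;HTR5 replicate 3 (adjusted p = 0.0361). KRP2 (AT3G50630) was at 17.9, 21.6 and 21.2 TPM against 18.5, 15.5 and 17.7 TPM, with overlap (-0.22 ± 0.10, adjusted p = 0.178). SIM and SMR7 were at 0.703 to 3.201 TPM with overlapping groups, so little can be read from them at this depth.

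Of the DNA damage genes 0 passed by limma and 0 with voom, and WEE1 alone had an unadjusted p under 0.05. WEE1 (AT1G02970), the kinase that halts the cycle when replication is disturbed, was at 3.28, 3.05 and 3.13 TPM in wild type against 1.79, 2.63 and 2.19 TPM in h3.3ko;HTR5. It was lower in every h3.3ko;HTR5 library and did not pass (-0.38 ± 0.15, limma adjusted p = 0.125). BRCA1, of homologous recombination, and PARP2, a poly(ADP-ribose) polymerase, are genes that rise on DNA damage in Arabidopsis. BRCA1 (AT4G21070) was at 3.73, 3.86 and 4.12 TPM against 3.03, 4.04 and 3.26 TPM, and PARP2 (AT4G02390) at 1.78, 2.76 and 1.84 TPM against 3.16, 3.39 and 1.61 TPM. Both overlapped between groups, with log2 fold changes of -0.15 and 0.23. SMR5 and SMR7, inhibitors known to respond to DNA damage and oxidative stress, were at 0 and at 0.703 to 2.36 TPM. SMR5 overlaps annotated AT1G07510 on the other strand, and no source used here gives the strand setting. Whether its 0 reads reflect how overlapping reads were assigned was not tested.

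A wider list of 123 other cell cycle genes, 117 of them tested, was looked at in the same fit. By limma 5 were lower and 0 higher, against 8.32% and 3.7% of all genes, and their median log2 fold change was -0.05. At an unadjusted p under 0.05 there were 16, of which CYCA2;4, KRP6, SOG1 and NBS1 were higher, and voom called 8, with SOG1 the one that was higher. Over all genes 26.8% had an unadjusted p under 0.05 and voom called 15.3%, so both counts for the wider list lay below the share of all genes. The 33 other S phase genes had 3 lower (RPA1B, ORC6 and TK1A), 25 below 0 and a median of -0.09, and the 39 tested mitosis genes had 0 passed by limma or voom, 1 at an unadjusted p under 0.05, 17 below 0 and a median of 0.01. RPA1B (AT5G08020), a subunit of the protein that coats single-stranded DNA, was at 8.46 to 10.1 TPM in wild type against 5.71 to 6.30 TPM in h3.3ko;HTR5 (-0.57 ± 0.10, limma adjusted p = 0.00612). ORC6 (AT1G26840), an origin subunit, was at 4.16 to 5.02 TPM against 2.45 to 2.99 TPM (-0.55 ± 0.13, limma adjusted p = 0.0219). TK1A (AT3G07800), a thymidine kinase that salvages a DNA precursor, was at 14.6 to 17.0 TPM against 11.39 to 12.08 TPM (-0.37 ± 0.09, limma adjusted p = 0.0206). The groups did not overlap for RPA1B, ORC6 or TK1A. Of the 33 other S phase genes 7 were lower without overlap, near the 20.4% of all genes tested. The 25 below 0 stand against 57.9% of all genes tested. The origin subunit genes ORC3, ORC4 and ORC5 had log2 fold changes of 0.00, 0.01 and 0.00 (limma adjusted p of 0.9637 or more). The further RPA genes RPA1A, RPA1C and RPA2A had 0.18, -0.14 and -0.22 (limma adjusted p of 0.3605 or more). All of these ORC and RPA genes overlapped between groups.

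SMR6 (AT5G40460), another SIAMESE-related gene, had the largest fall of all cell cycle genes examined, from 4.45, 4.56 and 4.86 TPM to 2.42, 1.99 and 1.302 TPM (-0.97 ± 0.16, limma adjusted p = 0.00443). BARD1 (AT1G04020), a partner of BRCA1, was at 9.35, 10.3 and 14.1 TPM against 8.23, 7.52 and 5.76 TPM (-0.58 ± 0.16, limma adjusted p = 0.0416). RPA1B and SMR6 passed under every alternative in which they were tested. SMR6, a low gene, was not tested with the filter at a mean TPM of 5. BARD1 missed the threshold under 8 of 15 alternatives, with the value without wild type replicate 3 at 0.127 and without replicate 3 of h3.3ko;HTR5 at 0.145. ORC6 missed it when wild type replicate 1 (0.0504) or 3 (0.0815), or replicate 3 of h3.3ko;HTR5 (0.0856), was left out. TK1A missed it when wild type replicate 3 (0.0779), or replicate 1 (0.0553) or 3 (0.0781) of h3.3ko;HTR5, was left out. In this wider list the ratio of the S phase to the mitosis geometric mean was 1.31, 1.31 and 1.28 in wild type and 1.13, 1.18 and 1.27 in h3.3ko;HTR5, without overlap and with h3.3ko;HTR5 replicate 3 close to wild type.

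Within S phase, genes with and without the E2F motif had medians close to each other. The 9 S phase genes with the motif had a median log2 fold change of -0.30, and the 10 without it had a median of -0.29. MCM7, CDT1A and TSO2, all lower, have no E2F motif in the 300-base window, while RNR1, shown above, has one just after its start. With the shorter words GCGGGA and GGCGGG, which lie partly within the longer motif, 13 of 19 S phase and 1 of 15 mitosis promoters had a match, against 3.98% of all promoters. CDT1A, PCNA1, PCNA2 and POLD1, which lack the longer motif, hold a shorter word. The log2 fold changes were not split by the shorter words. With AACGG in place of CAACGG, 11 of 15 mitosis and 6 of 19 S phase promoters had one, against 24.7% of all. Among the other cell cycle genes the E2F motif was in 10 of 33 S phase (30.3%) and 3 of 41 mitosis promoters (7.32%), against 1.76% of all promoters. The MSA core was in 12 of 41 mitosis (29.3%) and 1 of 33 S phase promoters (3.03%), against 6.56% of all.

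Marker genes of other tissues were read in the same fit, for which 12% of all genes changed. Of 10 tested genes of meristems and young organs 1 passed, AN3, a coactivator of leaf cell proliferation, which was lower (23.1, 18.6 and 20.5 TPM in wild type, 16.9, 15.9 and 14.6 TPM in h3.3ko;HTR5, limma adjusted p = 0.0303). The summed TPM of the 12 meristem genes was 163 to 181 in wild type and 164 to 168 in h3.3ko;HTR5. Its highest genes were SCR (46.2 to 51.4 TPM in wild type, 47.75 to 53.4 TPM in h3.3ko;HTR5) and CLV1 (39.0 to 43.2 and 39.2 to 42.6 TPM). Of the 10 tested, 7 had a log2 fold change below 0, against 57.9% of all genes tested, with a median of -0.18. Lower without overlap were 3 of them (KNAT1, ANT and AN3), against 20.4% of all genes tested. The stem cell gene WUS was at 0 in 5 of 6 libraries and CLV3 at most 0.585 TPM. The 7 stomatal genes, which include EPFL9, a signal made in the mesophyll (25.7 to 32.3 TPM against 28.9 to 32.3 TPM), summed to 72.3 to 73.7 TPM against 65.8 to 67.6 TPM. Their limma adjusted p-values were 0.0954 or more, and 6 of the 7 had a log2 fold change below 0, with a median of -0.25. The 4 shoot photosynthesis genes summed to 59680 to 63950 TPM against 65430 to 67890 TPM, with RCA and LHCA1 higher by limma, and the 6 root genes to 2035 to 2061 TPM against 1800 to 1995 TPM. Nearly all of the root sum was PYK10 (1927 to 1947 TPM against 1708 to 1881 TPM), the limma adjusted p-values of the 5 tested root genes were 0.0786 or more, and EXPA7 had a log2 fold change above 0 (0.17). The 4 seed genes summed to 0.381 to 1.14 TPM against 1.56 to 8.21 TPM. Of these CRA1, a seed storage protein gene, was higher (0.381 to 0.830 TPM against 1.23 to 4.68 TPM, limma adjusted p = 0.0292). The 4 flower genes, all too low to be tested, summed to 0.746 to 1.17 TPM against 0.184 to 0.321 TPM. Most of that sum was PI, at 10 to 16 reads in wild type against 2 to 4 in h3.3ko;HTR5. The part of tissue makeup in the S phase values was not tested.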

How the data were processed

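RNA was sequenced from whole seedlings, and per the submitters' processing notes the reads were handled with fastp 0.20.1, HISAT2 2.1.10 and DESeq2 1.26.0 on the TAIR10 build. No source used here names the read counter, whether it used strand, or the annotation release. What the authors deposited is a single TPM table of 27655 genes by 6 libraries, whose column names match the samples. When length is taken as the full gene span (introns included), 22980 of 22985 expressed genes have deposited TPM that are whole reads, within 0.02 reads, in every library, so these values run lower for genes with long introns. TPM were also recomputed from those reads with exon length. Of the identifiers 27445 (99.2%) were found in the TAIR10.1 annotation, whose coordinates are printed.

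The test was limma 3.58.1 in R 4.3.3 (lmFit, eBayes with a trend) on log2(TPM + 1), for genes whose mean TPM reached 1, two-sided, with Benjamini-Hochberg adjustment over all 19013 genes tested and a threshold of 0.05. This scale understates the change of low genes. The pipeline was tested on simulated data. Replicates differed beyond counting noise, their chi-square over its degrees of freedom being 2.13 to 3.91. The member genes, the 123 other genes, the markers and the motifs were chosen with earlier results of these data known. Genes named are those past the threshold plus the 3 members of each class with the highest mean TPM, up to 10 of the wider list past it, and others chosen after their values were seen. Alternatives changed the pseudocount (0.1), the filter (none, or a mean TPM of 5), the scaling, the gene length, the model (voom on recovered reads), the robust option, a replicate block and single libraries left out. The values of 1 member gene are not reported here and it is not drawn in the figures. It stays in the counts and class medians. Of the members 24 overlap another annotated gene.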

Additional observations from a re-analysis of the deposited data

How the results depend on the processing

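Every S phase gene tested had a log2 fold change below 0 and 0 mitosis genes passed under all 15 alternatives, and RNR1, TSO2, KRP1, RPA1B and SMR6 passed wherever they were tested. The 8 lower members became 13 with voom on recovered reads and 3 to 7 with single libraries left out, and all changed genes (2285) became 1289 to 2068 with libraries left out; fits without a library hold fewer samples. Of all changed genes 30.8% were higher, 46.4% under quantile normalization and 43.7% under median-of-ratios scaling. The G1 median of -0.01 became 0.0311 under quantile normalization and 0.0342 under median-of-ratios scaling, and -0.0497 to 0.028 with libraries left out. The inhibitor median became -0.4108 at a mean TPM of at least 5, which leaves 3 genes (KRP1, KRP2 and SMR1), and -0.3543 to -0.1688 with libraries left out. The S phase minus mitosis median was -0.2866 to -0.1802 with libraries left out. Changed genes of the wider list went from 5 to 3 at a mean TPM of at least 5 (fewer genes tested), 8 with voom and 2 to 5 with libraries left out. Signs changed only for values near 0. The log2 fold change of KN became 0.0372 under quantile normalization, 0.0374 under median-of-ratios scaling, 0.0021 with exon lengths and 0.0075 with voom. With single libraries left out it ranged from -0.1397 to 0.0866 for KN, from -0.0795 to 0.1062 for CDKB2;1, from -0.0069 to 0.0387 for CYCD3;2 and from -0.0111 to 0.0289 for CDKA;1. Beyond the fewer samples or genes named, the cause was not tested.

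Groups share replicate numbers, but deviations of same-numbered libraries had correlations of -0.0427, 0.0236 and -0.0122, so the numbers were not taken as pairs. With a replicate block 4 members were lower instead of 8, 3 of them S phase genes, since MCM3 (limma adjusted p = 0.0533), MCM4 (0.0826), CDT1A (0.0631) and CYCD3;3 (0.0634) missed the threshold, and 1851 genes changed in all. MCM7 is read with its overlapping neighbours, and genes of 1 to 3 TPM such as ORC1A, SIM and SMR7 rest on few reads, which limits what a group of 3 libraries can show for them.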

Other observations

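Of the 16 tested DNA damage genes of the wider list, 8 had a log2 fold change below 0 and 8 above it, with a median of -0.03, and BARD1 passed as lower. SOG1, the transcription factor that governs the plant DNA damage response, was at 6.51, 5.59 and 7.53 TPM in wild type against 8.81, 8.61 and 8.51 TPM in h3.3ko;HTR5, and NBS1, of the complex that senses double-strand breaks, was at 2.71, 2.92 and 2.503 TPM against 3.91, 3.59 and 3.80 TPM. Both were higher in every h3.3ko;HTR5 library, with log2 fold changes of 0.36 ± 0.11 and 0.36 ± 0.13 and limma adjusted p-values of 0.0657 and 0.0938 (n = 3 per group). They were chosen here after their values were seen, and 10.8% of all genes tested were higher without overlap. SOG1 passed under quantile normalization and under median-of-ratios scaling (limma adjusted p = 0.0425 in each), with exon lengths (0.0467), with voom (0.023) and without wild type replicate 3 (0.0425), and NBS1 passed under quantile normalization (0.0459). The A-type cyclin genes CYCA3;1 and CYCA3;2, known for S phase expression, were at 4.97 to 6.94 TPM and 16.1 to 19.2 TPM in wild type and at 3.82 to 4.05 TPM and 11.1 to 15.1 TPM in h3.3ko;HTR5, without overlap (limma adjusted p of 0.0650 and 0.0713), as were 20.4% of all genes tested. CYCA3;2 passed with voom (adjusted p = 0.0329). CYCA3;4 overlapped between groups (-0.10, limma adjusted p = 0.535).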
